A study of Mus musculus with 6 samples.

Results

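The 33 genes described here encode the enzymes that make cholesterol and fatty acids, together with the proteins that control their transcription. They were chosen by name from the gene table, in which each of the 33 had 1 row of the 24182, by a rule that uses no measured value, although earlier results of these data were known when the set was drawn up. RNA was profiled by bulk sequencing in Th17 cells from mice, which are CD4 T helper cells marked by interleukin 17. In 3 libraries (Sirt2 KO, replicates 1 to 3) Sirt2, which encodes a NAD-dependent deacetylase, had been knocked out with CRISPR/Cas9, and 3 libraries (Sirt2 WT, replicates 1 to 3) were controls. Cells of all 6 received anti-CD3 (0.5 μg/mL) together with anti-CD28 (1 μg/mL) over 72 hours, and all carry the treatment label untreated. The sources used here give no strain, age or guide sequence, nor whether a line is clonal. The labels do not say whether replicates are separate cultures or animals. The p-values therefore reflect only how far these libraries scatter, which may be technical.

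Cholesterol is built from acetyl-CoA through mevalonate, squalene and lanosterol, and fatty acids are built from acetyl-CoA and malonyl-CoA and then elongated and desaturated. Both routes are switched on by the transcription factors SREBP-1 and SREBP-2, which lie in the membrane of the endoplasmic reticulum bound to the escort protein SCAP. When sterols are scarce SCAP carries them to the Golgi, where 2 proteases release the active factor, and when sterols are plentiful the INSIG proteins hold the complex back. T cells turn this programme on after activation to build membranes, and an intermediate of sterol synthesis is known to act as a ligand of RORγt, the lineage factor of Th17 cells.

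The values are FPKM (fragments counted per kilobase and scaled for library size). A gene value can lie far below that of the gene's own most abundant transcript (for Fdps, means of 62.9 and 185 FPKM). Gene values therefore do not by themselves rank genes by the level of their messages. Read depth is unknown from these tables. Summed over genes, FPKM came to between 303772 and 321734 a library, with 10642 to 10958 genes at or above 1 FPKM. The knocked-out gene itself read 11.2, 13.5 and 10.9 FPKM across the KO libraries, in replicate order, where the WT libraries read 20.7, 19.9 and 21.9 FPKM for Sirt2, lower in all KO libraries as labelled but not absent. KO replicate 3 stood apart from the other KO libraries, with a correlation across genes of 0.981 and 0.979 with KO replicates 1 and 2 and of 0.990 with each WT library. The 9 T cell markers summed to 855 to 941 FPKM in KO against 870 to 911 FPKM in WT, and the 11 Th17 markers to 480, 641 and 632 FPKM in KO against 697 to 712 FPKM in WT. Of these 11, 1 (Maf) was lower and 1 (Il22) higher in all KO libraries, and 9 overlapped. No marker of either list was at 0 in all libraries. Summed markers of other cells were higher in KO, although some markers of each list overlapped between groups. The 10 myeloid markers summed to 40.0 to 41.2 FPKM in KO against 30.4 to 31.6 FPKM in WT, with 6 of 10 higher in all KO libraries. The 8 B cell markers summed to 22.8 to 27.7 and 19.1 to 19.7 FPKM, with 4 of 8 higher, and 8 of 9 listed cytotoxic and NK markers, those with a row in the table, summed to 25.5 to 29.2 and 9.34 to 9.97 FPKM, with 5 higher. Of all tested genes, 4.28% were higher and 6.88% lower in all KO libraries. The sums rested largely on a few genes, with Ctss at 26.3 to 31.4 FPKM (overlapping WT), Ighm at 21.3 to 25.3 FPKM and Gzmb at 11.6 to 19.2 FPKM in KO. Lyz2, a myeloid marker, was at 8.31, 9.44 and 4.24 FPKM in KO against 1.38, 1.03 and 0.782 FPKM in WT (limma adjusted p = 0.0503). Of the 5 cytotoxic and NK markers tested, 2 rose, Gzmb and Gzmc (limma adjusted p = 0.00675 and 0.0375), against 0.0920% of all tested genes. In the myeloid and B cell lists 0 passed. No marker of these 3 lists was at 0 in every library, and their part in the results below was not tested. In bulk RNA fewer cells of a type and less RNA per cell cannot be told apart.

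The promoters of these genes are shown because SREBP factors act through them. RefSeq windows (build GRCm38.p6) matched 26 of the 33 genes, and the 250 bases before each annotated start were searched on both strands. The sterol regulatory element was searched as TCACNCCAC and the NF-Y box, bound by a factor that works beside SREBP, as CCAAT. In the 6 windows printed here, in the gene's own direction, capitals mark these motifs on either strand, so that ATTGG is a CCAAT box on the other strand and CCAATTGG in Fasn is a pair of overlapping boxes. The upstream Srebf1 window holds neither motif. Of the 3 Srebf1 windows, those at the starts of its leading transcript (upstream) and of a shorter one (downstream) are shown because these differ in level, Hmgcs1 because it alone held the sterol element, and Pmvk, Fasn and Sc5d because their KO and WT values did not overlap. Fads1, whose values did not overlap either, was not matched. The Pmvk window lies before the gene's annotated start (89454541). Its leading transcript, with 96.0% to 99.6% of the gene's transcript FPKM, starts downstream of that, at 89459118. The Pmvk window is therefore not the sequence just before the start of that transcript.
Srebf1 upstream start, minus strand, chr11:60220628-60220877: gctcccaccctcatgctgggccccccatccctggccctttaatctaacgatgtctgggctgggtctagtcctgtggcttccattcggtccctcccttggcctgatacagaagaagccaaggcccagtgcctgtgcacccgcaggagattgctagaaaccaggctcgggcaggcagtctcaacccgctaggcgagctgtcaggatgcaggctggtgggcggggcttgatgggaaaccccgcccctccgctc
Srebf1 downstream start, minus strand, chr11:60210472-60210721: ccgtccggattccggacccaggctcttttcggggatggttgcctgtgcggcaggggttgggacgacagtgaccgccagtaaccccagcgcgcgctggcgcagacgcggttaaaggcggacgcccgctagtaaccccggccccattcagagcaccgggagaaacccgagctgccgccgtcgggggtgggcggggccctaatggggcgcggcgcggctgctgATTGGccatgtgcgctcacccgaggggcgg
Hmgcs1, plus strand, chr13:119690101-119690350: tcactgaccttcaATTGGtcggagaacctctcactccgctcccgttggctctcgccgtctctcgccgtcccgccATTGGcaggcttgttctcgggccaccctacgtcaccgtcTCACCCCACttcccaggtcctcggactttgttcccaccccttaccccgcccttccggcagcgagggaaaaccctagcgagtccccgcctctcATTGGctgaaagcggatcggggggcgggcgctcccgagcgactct
Pmvk, the window at the gene's start, plus strand, chr3:89454291-89454540: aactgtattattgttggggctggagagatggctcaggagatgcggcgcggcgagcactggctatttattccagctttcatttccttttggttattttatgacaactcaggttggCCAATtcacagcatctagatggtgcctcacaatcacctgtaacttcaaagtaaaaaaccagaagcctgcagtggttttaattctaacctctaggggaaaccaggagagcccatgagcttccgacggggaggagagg
Fasn, minus strand, chr11:120824548-120824797: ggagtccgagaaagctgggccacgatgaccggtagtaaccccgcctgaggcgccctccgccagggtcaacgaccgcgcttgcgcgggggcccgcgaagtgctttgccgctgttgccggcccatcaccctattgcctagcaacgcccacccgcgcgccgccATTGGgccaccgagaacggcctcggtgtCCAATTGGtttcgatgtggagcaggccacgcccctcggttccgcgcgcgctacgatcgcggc
Sc5d, minus strand, chr9:42264301-42264550: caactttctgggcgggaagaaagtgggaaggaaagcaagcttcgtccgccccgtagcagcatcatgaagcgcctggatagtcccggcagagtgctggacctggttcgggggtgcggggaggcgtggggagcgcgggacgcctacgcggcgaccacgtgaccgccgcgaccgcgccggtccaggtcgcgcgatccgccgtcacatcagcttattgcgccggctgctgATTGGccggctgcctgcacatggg

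TCACNCCAC was found in 1 of the 26 matched genes, Hmgcs1, and in 1.05% of all 32851 windows of this length. CCAAT was found in 21 of the 26, in 22 of their 35 windows (62.9%), against 33.8% of all windows. GGGCGG, the core of the Sp1 box, was in 24 of the 35 windows (68.6%) against 32.7% of all. CACGTG, an E-box that SREBP-1 can also bind, was in 6 of the 35 (17.1%) against 6.02%. A match describes letters only, and the absence of a match says nothing of SREBP binding.

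The comparison of KO with WT asked whether loss of Sirt2 went with a different level of the lipid synthesis programme. Across all 6 libraries none of the genes rose or fell. Of the 33, 32 passed the filter of 1 FPKM in at least 3 libraries, and 0 of these 32 (0 higher, 0 lower) passed limma's test (adjusted p under 0.05, Benjamini-Hochberg over the 10873 genes tested), against 0.110% of all tested genes (0.0920% higher and 0.0184% lower). Their adjusted p ran from 0.843 to 0.999. At an unadjusted p under 0.05 there were 2 of 32 (6.25%), against 5.61% of all genes. The groups did not overlap for 4 of 32 (12.5%), 2 higher and 2 lower in KO, against 11.2% of all genes (4.28% higher and 6.88% lower). Both shares were near their backgrounds. The median log2 fold change on the log2(FPKM + 1) scale was -0.02 over the 32, with 15 above 0 and 17 below, and -0.03 over all tested genes. The remaining gene, Acacb, which encodes the mitochondrial isoform of acetyl-CoA carboxylase, was at 0.0975 to 0.180 FPKM in all libraries and was not tested. In the authors' deposited table the smallest q-value of any of the 33 was 0.877.

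How large a difference these libraries leave room for can be read from the intervals. The 95% interval of the difference lay within 0.5 of 0 on the log2 scale, a fold of 1.41 in FPKM + 1, for 31 of the 32 genes (96.9%). The same held for 82.0% of all tested genes and for 88.1% of those with a mean of 5 FPKM or more. The exception was Scd1, whose interval ran from -0.61 to 0.23. For a low gene such as Acss2 the same limit is a wider fold in FPKM. This limit of 0.5 was chosen after the values were seen.

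**Figure D1:**
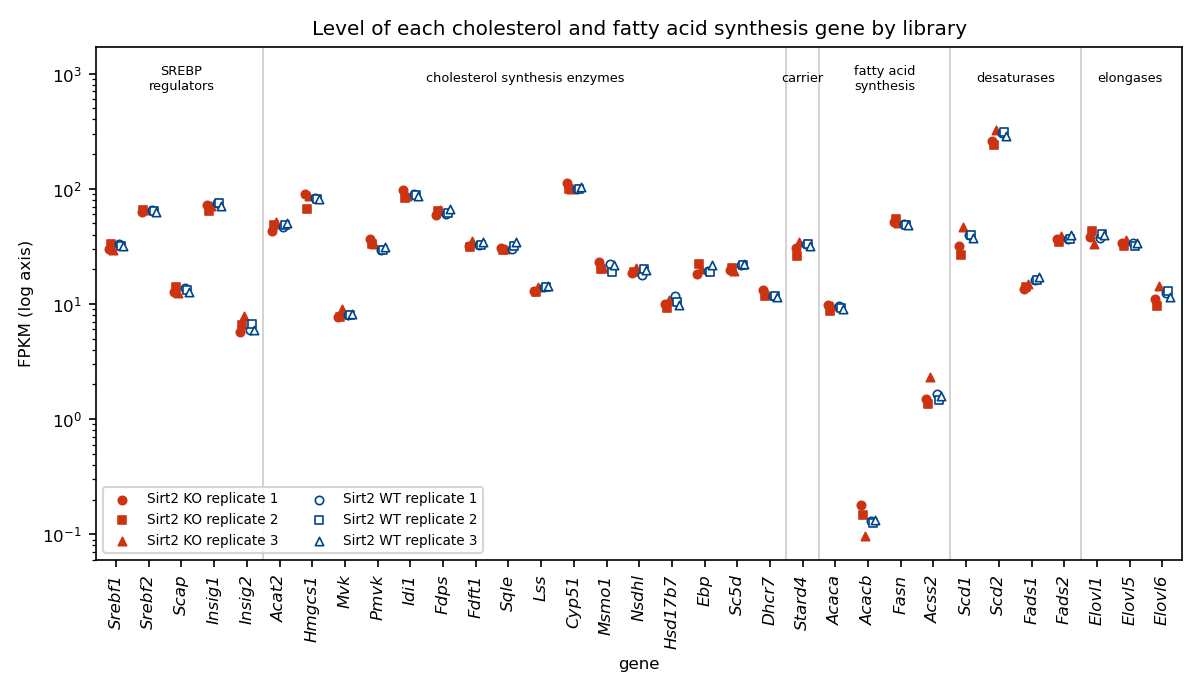
Level of each of the 33 genes in FPKM on a log axis, grouped by role, with filled red symbols for the 3 Sirt2 KO and open blue symbols for the 3 Sirt2 WT libraries. KO and WT points lie on top of each other for most genes, Scd2 is the most abundant with a mean of 287 FPKM, and Acacb lies far below the others.

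**Figure D2:**
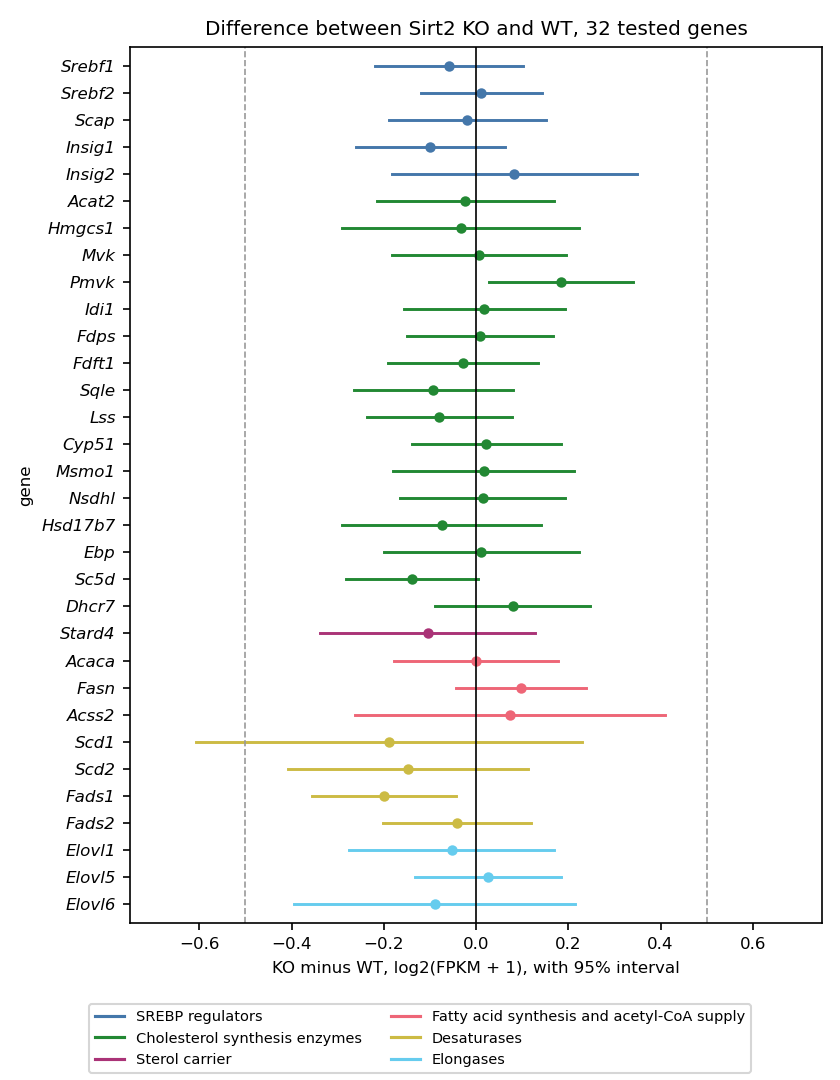
Difference between KO and WT for the 32 tested genes on the log2(FPKM + 1) scale, with points for the estimate and bars for limma's 95% interval, coloured by role. Dashed lines stand at 0.5 on either side of 0, and only the Scd1 bar crosses one of them.

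The 5 regulators did not pass the test, and their KO and WT values overlapped in each case. Srebf2 encodes SREBP-2, the main activator of cholesterol synthesis. It was at 62.9, 65.2 and 65.5 FPKM in the KO libraries, in replicate order as throughout, against 65.3, 63.8 and 62.9 FPKM in WT, with a difference of 0.01 (95% interval -0.12 to 0.14). Its coefficient of variation over the 6 libraries was 1.87%, against a median of 5.91% over the 32 genes and 10.3% over all tested genes. For tested genes with a mean of 5 FPKM or more, that median was 8.42%. Srebf1 encodes SREBP-1, which favours fatty acid genes. It was at 30.002, 33.3 and 29.6 FPKM in KO against 33.3, 31.8 and 31.8 FPKM in WT (difference -0.06, interval -0.22 to 0.10). Most of it came from the upstream start, where the transcript of 4299 bases (ENSMUST00000020846) was at 32.2 to 41.3 FPKM over all libraries. As background, the upstream start gives the SREBP-1a form and the downstream start SREBP-1c. The tested transcript from the downstream start (ENSMUST00000144942) was at 1.05 to 1.91 FPKM, and neither passed the test (limma adjusted p = 0.914 for both).

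Scap, the escort protein, was at 12.8, 13.9 and 12.5 FPKM in KO against 13.9, 13.2 and 12.7 FPKM in WT. Insig1, itself a target of SREBP and so often read as a gauge of SREBP activity, was at 72.7, 63.8 and 70.6 FPKM in KO against 74.8, 75.7 and 71.3 FPKM in WT. KO replicate 2 was the lowest Insig1 library and KO replicate 1 lay inside the WT range (difference -0.10, interval -0.26 to 0.06). Insig2, which does not depend on SREBP in the same way, was at 5.67, 6.53 and 7.80 FPKM in KO against 5.91, 6.72 and 5.98 FPKM in WT. KO replicates 1 and 3 were its lowest and highest libraries. Among 7 other genes of SREBP processing and sterol sensing, 0 passed in either direction (median 0.01), and those of smallest p were the processing proteases. Mbtps1 had a log2 difference of -0.11 (limma adjusted p = 0.863) and Mbtps2 one of -0.12 (0.887).

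The 16 enzymes from acetoacetyl-CoA to cholesterol had a median log2 difference of 0.01, with 9 above 0 and 7 below, and 0 passed. Summed over the 16, they reached 624, 579 and 613 FPKM in KO against 599, 596 and 619 FPKM in WT, so that the KO sums lay on both sides of the WT range. Cyp51, lanosterol demethylase, had the highest gene value. It was at 111, 98.6 and 98.6 FPKM in KO against 100.1, 98.9 and 104 FPKM in WT. Mvk, mevalonate kinase, had the lowest gene value (mean 8.09 FPKM). By transcript the order differed, with the leading transcript of Fdps at 175 to 195 FPKM and that of Cyp51 at 111 to 125 FPKM. Pmvk and Sc5d were the enzymes of this group whose groups did not overlap, and they pointed in opposite directions.

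Pmvk (ENSMUSG00000027952; GRCm38 chromosome 3, 89454541 to 89469013) encodes phosphomevalonate kinase. It was at 36.4, 33.3 and 33.2 FPKM in KO against 29.6, 29.2 and 31.4 FPKM in WT. Each KO library was above each WT library, and the difference of 0.18 (SE 0.0673, unadjusted p = 0.0272) did not pass over all genes (limma adjusted p = 0.843). Its leading transcript, of 5 exons, gave the same picture at 46.9 to 50.9 FPKM in KO against 40.4 to 43.7 FPKM in WT. Sc5d (chromosome 9, 42251595 to 42264256), the lathosterol 5-desaturase near the end of the route, was at 19.5, 20.6 and 19.4 FPKM in KO against 21.9, 21.8 and 22.2 FPKM in WT. All KO libraries were lower, by a difference of -0.14 (interval -0.28 to 0.00, limma adjusted p = 0.843). Dhcr7, which acts after Sc5d and makes cholesterol itself, was at 13.2, 11.6 and 12.3 FPKM in KO against 11.8, 11.8 and 11.4 FPKM in WT, with overlapping groups.

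The other enzymes overlapped between groups. Hmgcs1, HMG-CoA synthase, whose promoter holds the sterol element printed above, was at 89.9, 66.7 and 85.7 FPKM in KO against 81.0 to 83.9 FPKM in WT. Its KO libraries fell on both sides of WT, and KO replicate 2 was the lowest. Acat2, Idi1, Fdps, Fdft1, Sqle, Lss, Msmo1, Nsdhl, Hsd17b7, Ebp and Mvk had log2 differences from -0.09 (Sqle, squalene epoxidase) to 0.02 (Idi1, isopentenyl diphosphate isomerase). Of 11 further genes of the mevalonate and sterol route, 10 were tested and 0 passed in either direction, with differences between -0.04 and 0.05. Acat1 and Nus1, with the smallest p of these, both had a difference of 0.05 (limma adjusted p = 0.900 and 0.905). Stard4, a carrier that moves sterols between membranes, was at 30.5, 26.1 and 34.5 FPKM in KO against 33.1, 32.97 and 31.6 FPKM in WT. The KO libraries lay both below and above WT.

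In fatty acid synthesis, Fasn (ENSMUSG00000025153; chromosome 11, 120805846 to 120824547), the fatty acid synthase, was at 51.2, 55.0 and 50.8 FPKM in KO against 49.5, 48.2 and 48.7 FPKM in WT. All KO libraries were above all WT libraries, by 0.10 (SE 0.0602), which did not pass (limma adjusted p = 0.850). Acaca, the cytosolic acetyl-CoA carboxylase that makes its substrate malonyl-CoA, was at 9.33 ± 0.645 FPKM in KO against 9.32 ± 0.272 FPKM in WT (difference 0.00, interval -0.18 to 0.18). Acss2, which makes acetyl-CoA from acetate, was low, at 1.51, 1.35 and 2.32 FPKM in KO against 1.45 to 1.64 FPKM in WT, with KO replicate 3 the highest. The 3 elongases overlapped as well. Elovl1, for very long chains, was the most abundant of them, at 37.8, 42.7 and 33.4 FPKM in KO against 37.2, 40.7 and 39.8 FPKM in WT. Elovl5 and Elovl6 differed by 0.03 and -0.09.

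The 4 desaturases, which put double bonds into fatty acids, all lie on chromosome 19. All 4 had differences below 0 (median -0.17), as did 6382 of the 10873 tested genes, and 0 of the 4 passed. Fads1 (ENSMUSG00000010663; 10182888 to 10196877), the delta-5 desaturase of polyunsaturated fatty acids, was at 13.6, 14.2 and 14.8 FPKM in KO against 16.2, 16.1 and 17.0 FPKM in WT. Its groups did not overlap, and it had the smallest p of the 32 genes (difference -0.20, SE 0.0670, unadjusted p = 0.0190, limma adjusted p = 0.843). Fads2, the delta-6 desaturase encoded next to it, was at 36.7 ± 1.91 FPKM in KO against 37.8 ± 1.75 FPKM in WT (difference -0.04). Scd1 and Scd2 are neighbouring stearoyl-CoA desaturases that make monounsaturated fatty acids, and the sources used here do not say how reads shared between such paralogs were assigned. Scd2 (44293674 to 44306864) was the most abundant of all 33 genes, at 258, 239 and 324 FPKM in KO against 306, 308 and 288 FPKM in WT. Scd1 (44394455 to 44407879) was at 31.7, 26.5 and 46.6 FPKM in KO against 39.8, 39.7 and 37.2 FPKM in WT. For both, KO replicates 1 and 2 lay below every WT library and KO replicate 3 above every one.

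**Figure D3:**
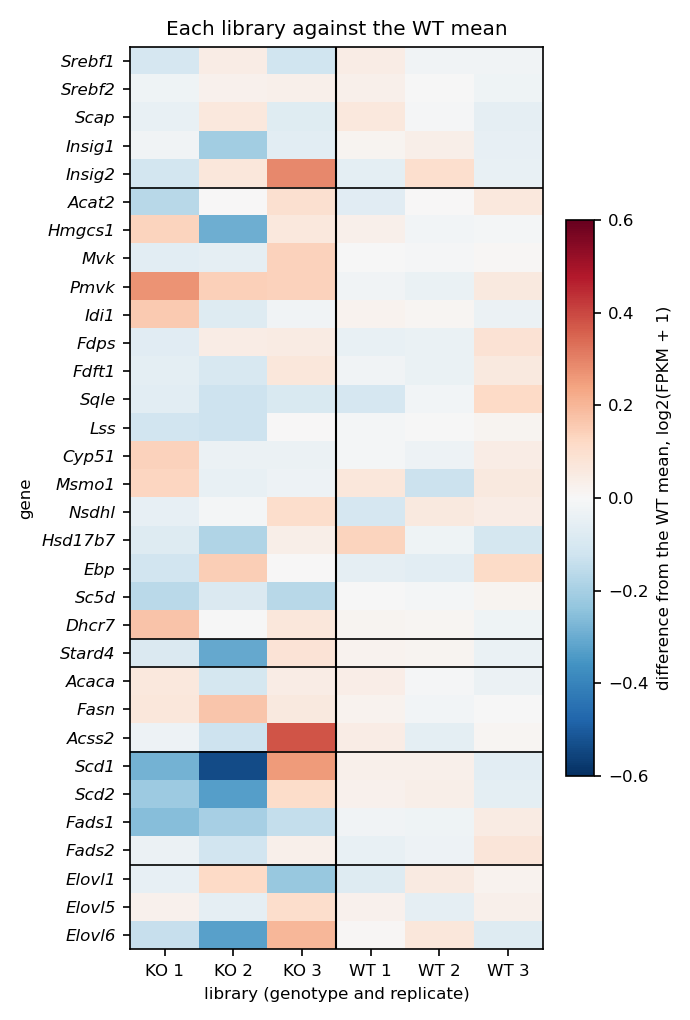
Difference of each library from the mean of the 3 WT libraries on the log2(FPKM + 1) scale for the 32 tested genes, red for higher and blue for lower. Scd1, Scd2, Stard4 and Elovl6 are blue in KO replicate 2 and red in KO replicate 3, while Fads1 is blue in all 3 KO libraries.

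Because KO replicate 3 stood apart, the comparison was repeated without it. In that fit Scd1 and Scd2 fell, by 0.41 and 0.28 on the log2 scale (limma adjusted p = 0.0284 and 0.0327). Without KO replicate 2 instead, the differences were near 0, at -0.016 for Scd1 and -0.056 for Scd2, and neither passed (limma adjusted p = 0.99988 for both). The 2 calls were 2 of the 32 genes (0 higher), against 10.1% of all tested genes, with 6.14% called lower. Fads1 did not pass (difference -0.23, limma adjusted p = 0.0517). Libraries of both genotypes differed in how their values went with transcript length. Taken over 10869 genes, not independent of each other, length and the difference from the WT mean had a Spearman correlation of -0.33, -0.47 and 0.23 in KO replicates 1 to 3 and of 0.25, 0.0072 and -0.24 in WT replicates 1 to 3. Scd1 and Scd2 have long messages (4832 and 5455 bases for the leading transcripts). With length and GC content trends removed as well, Scd1 kept its call (-0.32, adjusted p = 0.0391), Scd2 lost it (-0.17, adjusted p = 0.0541), and Fads1 (-0.21, adjusted p = 0.0451) and Fasn (0.30, adjusted p = 0.0466), among the longest at 10050 bases, gained one, all by limma. That is 3 of 32 (1 higher and 2 lower), against 7.62% of all tested genes (2.82% higher and 4.80% lower). With all 6 libraries and these trends removed 0 passed.

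KO replicate 2 was the lowest of the 6 libraries for 14 of the 32 genes (43.8%, against 27.4% of all tested genes), and KO replicate 3 was the highest for 12 (37.5%, against 27.7%). Both held at once for 6 genes (18.8%, against 13.5%), namely Fdft1, Stard4, Acss2, Scd1, Scd2 and Elovl6. The spread was larger within KO than within WT for 27 of 32 genes (84.4%), and for 78.0% of all tested genes. These counts describe the libraries and were not tested.

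Neighbouring lipid genes, whose lists were chosen with earlier results known, gave counts of the same kind. Of 20 genes of sterol uptake, transport, esterification and efflux, 16 were tested and 0 passed in either direction (median -0.03). The smallest p was that of Soat2, which esterifies cholesterol, at 1.83, 1.95 and 4.21 FPKM in KO against 3.84 to 4.04 FPKM in WT (limma adjusted p = 0.843). As with Scd1, KO replicates 1 and 2 were below and KO replicate 3 above all WT libraries. Abca1, the cholesterol efflux pump and a target of the sterol receptor LXR, was at 1.10, 0.892 and 1.42 FPKM in KO against 1.46 to 1.64 FPKM in WT, lower in all KO libraries without passing (limma adjusted p = 0.843). Of 40 other genes of fatty acid synthesis and activation, 28 were tested and 0 passed in either direction (median 0.01). Acsl3 and Acsl6, acyl-CoA synthetases, had the smallest p, with differences of -0.19 and 0.35. Of 19 genes of mitochondrial fatty acid oxidation, the breakdown route, 18 were tested and 0 passed in either direction (median -0.00). Acaa2 and Acadvl, enzymes of that cycle, had the smallest p there, with differences of 0.12 and 0.13 (limma adjusted p = 0.843 for both).

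The transcript table asked whether isoforms moved where gene totals did not. Of 163 transcripts of the 33 genes, 63 passed the filter, from 32 genes, and 0 passed limma's test over 19184 transcripts, against 0.0417% of all (0.0156% higher and 0.0261% lower). At an unadjusted p under 0.05 there were 5 of 63 (7.94%, against 5.57%), and 10 (15.9%, against 11.1%) had groups that did not overlap. For 17 of the 32 genes 1 transcript held over 90% of the gene's transcript FPKM in every library. For 8 genes the share of the leading transcript moved by more than 30 percentage points between libraries.

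For 7 of these 8 genes (Mvk, Elovl1, Hmgcs1, Lss, Acat2, Acaca and Fdft1) the KO and WT levels of the leading transcript overlapped. Fdft1, squalene synthase, had one of the widest moves. Its transcript of 10 exons (ENSMUST00000224625) was at 8.11, 32.3 and 9.14 FPKM in KO against 35.7, 4.32 and 36.4 FPKM in WT, and that of 8 exons (ENSMUST00000054963) at 35.1, 2.09 and 37.6 FPKM in KO against 0.511, 40.3 and 1.89 FPKM in WT. One form was high where the other was low, while the gene total stayed at 31.0 to 34.9 FPKM in all 6 libraries. The exception was Dhcr7, whose leading transcript (ENSMUST00000073878) was at 25.7, 22.5 and 18.9 FPKM in KO against 18.4 and 12.2 FPKM in WT replicates 2 and 3, and was listed at 0 in WT replicate 1. All KO libraries were higher, without passing (limma adjusted p = 0.910), and in WT replicate 1 another transcript (ENSMUST00000124340) was at 25.5 FPKM, listed at 0 in the other libraries. For Acaca the leading transcript held 29.7% to 98.1% of the total with overlapping groups. The Hmgcs1 transcript of 11 exons was at 54.3 FPKM in WT replicate 2 and at 9.39 to 13.5 FPKM in the other libraries. Over the 32 genes the median coefficient of variation was 8.78% for the leading transcript and 5.91% for the gene.

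Mvd is not among the 33 genes but encodes the next enzyme after Pmvk, mevalonate diphosphate decarboxylase (chromosome 8, 122433601 to 122443422), and was chosen after its values were seen. Its protein-coding transcript (ENSMUST00000006692) rose to 38.0 ± 2.33 FPKM (SD, n = 3) in the KO libraries from 16.8 ± 0.803 FPKM in WT (log2 fold change 1.13, limma adjusted p = 0.0353). A transcript annotated as a target of nonsense-mediated decay (ENSMUST00000211883) fell to 0.246, 0.0502 and 0.104 FPKM in KO from 18.7, 21.6 and 21.6 FPKM in WT (log2 fold change -4.25, limma adjusted p = 6.65e-04). The 2 transcripts share most of their span, and the gene total was at 36.0 ± 2.11 FPKM in KO against 36.3 ± 2.26 FPKM in WT, a difference of -0.01 (limma adjusted p = 0.984). Here the groups did not overlap for either transcript, unlike those of Fdft1. The call of the rise held in 4 of 12 alternative fits and was lost on leaving out any 1 library (limma adjusted p = 0.0820 to 0.300). It was also lost at adjusted p under 0.01, which is not counted among the 12. The call of the fall held in 8 of the 9 in which it was tested, the exception being the replicate block (limma adjusted p = 0.0980). That transcript passed the filter only through the 3 WT libraries. Leaving out any 1 of them took it below the filter, and those fits are not among the 9. Both transcripts were picked for these values, so their p-values and counts of calls give no independent support for a change.

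**Figure D4:**
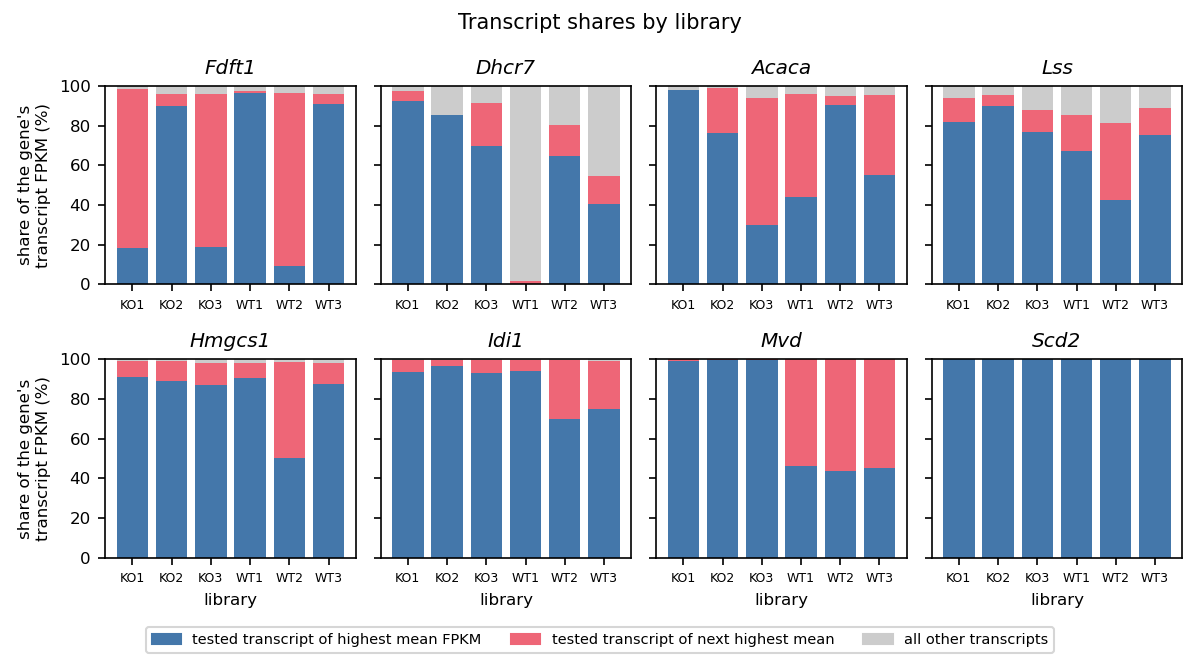
Share of the gene's summed transcript FPKM held by the 2 tested transcripts of highest mean and by all others, as stacked bars for each of the 6 libraries. The Fdft1 bars switch between forms within both genotypes, and Scd2 is a single form throughout. The protein-coding form of Mvd holds 99.3% to 99.9% in KO and 43.4% to 46.4% in WT.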

How the data were processed

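RNA was measured by sequencing in 6 libraries, grouped by their titles. The authors deposited a gene and a transcript table in FPKM, 1 column per library per the file headers, with a p-value and a q-value per feature, made with a tool that the sources used here do not name. The submitters' processing notes list HISAT2, StringTie, FastQC, cutadapt, edgeR and DESeq2 with no role, and build mm9. However, 73203 of the 73430 transcript IDs found in GENCODE M21 had the same position in GRCm38, so coordinates are given as GRCm38.

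For all 10873 tested genes, the sum of transcript FPKM times length divided by the gene's FPKM was the same in every library within 0.1 percent. Gene totals therefore do not depend on how fragments were split between isoforms. No source used here says whether strand was used, and exons of 6 of the 33 genes overlap another protein-coding gene (Acss2, Cyp51, Elovl1, Fdft1, Fdps and Srebf1).

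Features at 1 FPKM or more in at least 3 libraries were compared on log2(FPKM + 1) with limma 3.58.1 (R 4.3.3), letting the variance follow the mean level, with Benjamini-Hochberg adjustment over all of them. "Rose" and "fell" mean adjusted p under 0.05. This scale understates changes of low genes. Without counts no counting interval is given. The 33 genes and all lists were chosen with earlier results of these data known, and lists get counts and medians only. Values per library are given for the regulators, genes at unadjusted p under 0.05 or without overlap, the 4 largest differences each way and the gene of highest mean gene FPKM in each role. In neighbouring lists the 2 of smallest p are named, and up to 2 transcripts of a gene. Hmgcs1, Acss2, Acaca, Fads2 and Mvk, and the transcripts of Mvd, Acaca, Hmgcs1 and Fdft1 were chosen after their values were seen. Alternatives were median scaling, other filters, no mean trend, a pseudocount of 0.1, a replicate block, adjusted p under 0.01, length and GC content trends removed (available for 99.96 percent of genes) and each library left out. The fit without KO replicate 3 and with trends removed was added after seeing the data.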

Additional observations from a re-analysis of the deposited data

How the results depend on the processing

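The count of called genes among the 32 tested was 0 with all libraries and 0 in each alternative listed above except the fit without KO replicate 3, which gave 2 (range over the left-out libraries 0 to 2). The added fit, which also removed trends in length and GC content, gave 3. Over all genes the count was 12, with 5 at a filter of 5 FPKM, 7 at adjusted p under 0.01, 817 in the added fit, and 0 to 1088 on leaving out 1 library, the extremes being KO replicate 1 and KO replicate 3. Where limma called 0, an unadjusted p under 0.05 was reached by 346 genes. Over transcripts it was 8, with 4 without the filter, 25 without the mean trend, 4 at adjusted p under 0.01 and 1 to 6 on leaving out 1 library. With replicate numbers as a replicate block it was 3. The block gave 13 genes and 0 of the 32. Same-numbered KO and WT libraries had deviations that correlated at 0.01, -0.02 and -0.08 across genes, and differently numbered ones at -0.11 to 0.12. With 3 libraries a group these values cannot tell whether the numbers mark pairs. The Sirt2 difference was -0.76 (adjusted p = 0.0429). It was -0.72 after median scaling, and -0.76 without the filter, at 5 FPKM, without the mean trend and under the block, none of which passed, nor did it at 0.01. On leaving out 1 library it ran from -0.85 to -0.71 and did not pass without KO replicate 1 or any 1 WT library. Signs turned for values near 0. Scap was at 0.021 after median scaling, 0.0016 with the trends removed and 0.040 in the added fit, and Insig2 was at -0.0073 in the added fit. On leaving out 1 library the range was -0.00042 to 0.029 for Srebf2, -0.060 to 0.013 for Scap, -0.020 to 0.18 for Insig2, -0.035 to 0.052 for Cyp51 and -0.14 to 0.035 for Elovl1. Median scaling moved the median of all genes from -0.03 to 0.01. Pmvk, Fasn, Sc5d and Fads1 kept their sign in every alternative, but not their size. Sc5d went from -0.14 to -0.079 with the trends removed and to -0.011 in the added fit, and Pmvk from 0.18 to 0.098 in the added fit. Fasn went from 0.098 to 0.063 without KO replicate 2, 0.19 with the trends removed and 0.30 in the added fit. On leaving out 1 library Scd1 ran from -0.41 to -0.016 and Scd2 from -0.28 to -0.056, the extremes being KO replicates 3 and 2. The causes of these differences were not tested. Depth is unknown from these tables, so what it limits cannot be stated.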
